A study of Mus musculus with 6 samples.

Results

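The 10 genes described here encode the core enzymes of mitochondrial fatty acid beta-oxidation and the flavoproteins that carry its electrons to the respiratory chain. They were chosen by name, as Acadl, Acadm, Acadvl, Hadha, Hadhb, Hadh, Acaa2, Etfa, Etfb, and Etfdh, out of 56923 genes listed, and all 10 were among the 17212 genes that passed the filter on low counts. mRNA-Seq was performed on the LVs of 3 WT mice and 3 Lztr1 R409C/+ mice that were 12 weeks old. Each mouse gave 1 library. The mice were males on a C57BL/6J background, and the hearts were perfused with PBS before RNA extraction. The mutant mice carry 1 copy of a single-base substitution in Lztr1 that was introduced by CRISPR/Cas9. The allele is present in every cell, and the labels give the samples only as heart from mutant mice. Because the allele is a substitution, the level of Lztr1 mRNA cannot be used to check the genotypes. LZTR1 is an adaptor of a ubiquitin ligase that targets RAS-family proteins, and the study used these mice as a model of Noonan syndrome with cardiac hypertrophy.

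Fatty acids are the main fuel of the adult heart. In the mitochondrial matrix, each round of beta-oxidation consists of a dehydrogenation by an acyl-CoA dehydrogenase, a hydration, a second dehydrogenation, and a thiolytic cleavage that releases acetyl-CoA. The acyl-CoA dehydrogenases pass their electrons to electron transfer flavoprotein (ETF), a heterodimer of the ETFA and ETFB subunits, and ETF dehydrogenase (ETFDH) in the inner membrane hands them on to ubiquinone. Inherited loss of ETFA, ETFB, or ETFDH causes multiple acyl-CoA dehydrogenase deficiency, which can involve the heart.

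The comparison asks whether mRNA levels of these genes differ between the LVs of WT and Lztr1 R409C/+ mice. Values per mouse are given in replicate order as CPM, the count as a share of the library scaled to a common total, with effective library sizes from TMM, and log2 fold changes are Lztr1 R409C/+ over WT from the quasi-likelihood test of edgeR. Library totals were between 66130887 and 72641124 counts, so that 3 counts correspond to at most 0.0541 CPM. Of these totals, mitochondrially encoded genes held 45.4% in Lztr1 R409C/+ replicate 1, 13.8% in WT replicate 3, and between 29.7% and 37.3% in the other 4 mice. Because these libraries stood apart, the fold changes of the 10 genes are given also without them. The 10 cardiomyocyte markers, most of which are not particular to ventricle, were abundant (summed to between 33444 and 48932 CPM). Of 4 atrial markers, Myl7, Sln, and Myl4 were below 1 CPM in every mouse, whereas Nppa, which the ventricle can also express, had between 37.7 and 107 CPM. In these bulk samples, fewer cells of a type and less RNA per cell cannot be told apart.

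None of the 10 genes differed between the genotypes at a false discovery rate of 0.05, in either direction, by edgeR or by the Wald test of DESeq2. By this criterion, 0.00581% of all genes tested were lower and 0.0349% were higher by edgeR, and 0.101% were lower and 0.961% higher by DESeq2 (of 14874 genes with an adjusted p). The log2 fold change was below 0 for 9 of the 10 genes, against 48.6% of all genes tested, and Etfb was the exception. The median log2 fold change of the 10 genes was -0.31, and that of all genes tested was 0.01. At an unadjusted p under 0.05, 3 of the 10 genes (Etfdh, Hadhb, and Etfa) were lower and 0 were higher, where 2.86% of all genes were lower and 5.77% were higher. In 4 of the 10 genes (these 3 and Acadl), every Lztr1 R409C/+ mouse was below every WT mouse, which held for 7.23% of all genes. The reverse held for 0 of the 10 and for 8.3% of all genes. Among the 1052 genes with a mean of at least 100 CPM, to which all 10 belong, the background leaned lower. Of these, 67.3% were below 0, 7.79% were lower and 3.8% higher at an unadjusted p under 0.05, 18.6% were lower and 3.61% higher without overlap, 0% passed the false discovery rate in either direction, and the median log2 fold change was -0.11.

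**Figure D1:**
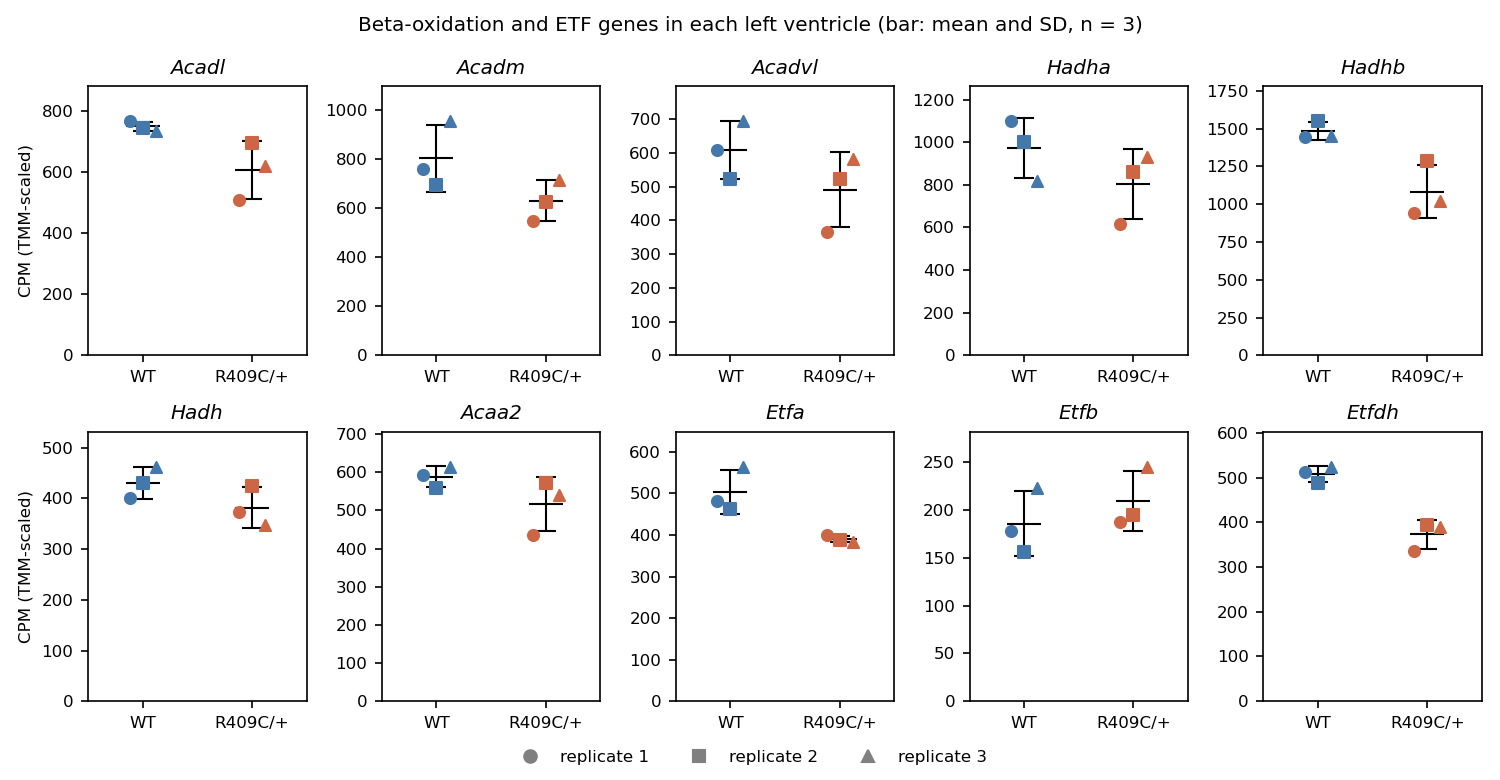
CPM (y axis, linear from 0) of each of the 10 genes in each LV, with WT mice on the left and Lztr1 R409C/+ mice on the right. Marker shapes give the replicate, and bars the mean and SD of 3 mice. For Acadl, Hadhb, Etfa, and Etfdh, the 3 Lztr1 R409C/+ mice lie below the 3 WT mice, and in 7 of the 10 panels the lowest point is Lztr1 R409C/+ replicate 1.

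Summed over the 10 genes, the level was 6845, 6610, and 7045 CPM in WT mice and 4718, 5962, and 5776 CPM in Lztr1 R409C/+ mice. The lowest sum was that of Lztr1 R409C/+ replicate 1, which also had the lowest value of 7 of the 10 genes. Without this mouse, the median log2 fold change of the 10 genes was -0.18, 9 genes were still below 0, and 2 (Etfa and Etfdh) were lower at an unadjusted p under 0.05. Without WT replicate 3, the median was -0.24, and 2 genes (Hadhb and Etfdh) had an unadjusted p under 0.05. Without WT replicate 1, 0 of the 10 genes had an unadjusted p under 0.05, while the median was -0.30. In that fit, Hadhb was at -0.47, Etfdh at -0.44, and Etfa at -0.40. Only Etfdh had an unadjusted p under 0.05 without WT replicate 2, where the median was -0.36. In the 6 fits that each leave out 1 mouse, between 1.87% and 2.97% of all genes tested were lower by this criterion.

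**Figure D2:**
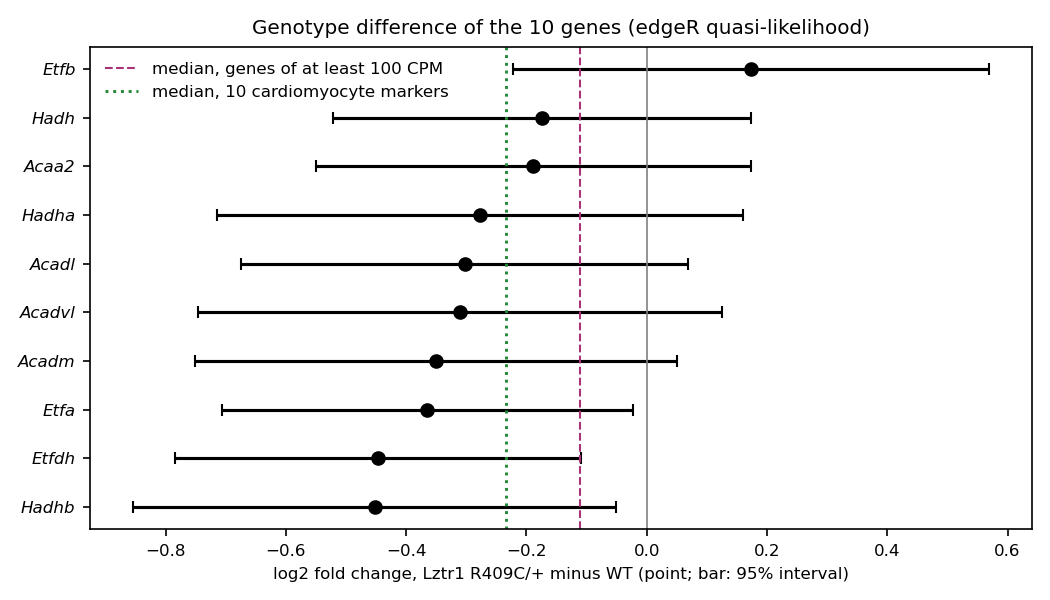
log2 fold changes of the 10 genes (x axis, Lztr1 R409C/+ minus WT) with 95% intervals from the quasi-likelihood fit of 3 mice against 3. The dashed line is the median of genes with at least 100 CPM (-0.11) and the dotted line that of 10 cardiomyocyte markers (-0.23). The intervals of Hadhb, Etfdh, and Etfa lie below 0, and every interval but that of Etfb spans the median of the cardiomyocyte markers.

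The first step is catalysed by acyl-CoA dehydrogenases that differ in the chain length of their substrates. Acadvl (ENSMUSG00000018574.15, chr11:69900853-69906270 of GRCm39, the build of all positions given), the very-long-chain enzyme of the inner membrane, had 608, 523, and 695 CPM in WT mice and 367, 523, and 582 CPM in Lztr1 R409C/+ mice. The groups overlapped, and the log2 fold change was -0.31 (standard error 0.20, unadjusted p = 0.146, adjusted p = 0.707). This value of Acadvl was -0.15 without Lztr1 R409C/+ replicate 1 and -0.21 without WT replicate 3. Acadl (ENSMUSG00000026003.6, chr1:66868267-66902633), the long-chain enzyme, had 766, 745, and 735 CPM in WT mice and 507, 694, and 619 CPM in Lztr1 R409C/+ mice. The WT values lay within a narrow band (749 ± 15.8 CPM, SD, n = 3), above all 3 Lztr1 R409C/+ values (607 ± 94.2 CPM, SD, n = 3). The exact permutation test of 3 mice against 3, which allows no p below 0.1, gave p = 0.1, and the fitted log2 fold change of Acadl was -0.30 (95% interval, -0.67 to 0.07, adjusted p = 0.657). It was -0.20 without Lztr1 R409C/+ replicate 1 and -0.32 without WT replicate 3. Acadm (ENSMUSG00000062908.13, chr3:153627989-153650317), the medium-chain enzyme, had 761, 694, and 956 CPM in WT mice and 549, 626, and 715 CPM in Lztr1 R409C/+ mice. Only Lztr1 R409C/+ replicate 3 reached into the WT range, and the log2 fold change of Acadm was -0.35 (standard error 0.18, unadjusted p = 0.0814, adjusted p = 0.630). Without WT replicate 3, that of Acadm was -0.21, and without Lztr1 R409C/+ replicate 1 it was -0.27.

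The proportions of the 3 dehydrogenases to each other overlapped between the 2 genotypes. Within a mouse, the ratio of Acadvl to Acadl lay between 0.702 and 0.945 in WT mice and between 0.724 and 0.940 in Lztr1 R409C/+ mice, a difference of the mean log2 ratio of -0.01. For Acadl to Acadm the difference was 0.03, and for Acadvl to Acadm it was 0.02. All 3 pairs of groups overlapped (exact permutation tests, p = 0.9 for each), and the sign of these differences changed when single mice were left out. With 3 mice per group, such a test cannot show that the proportions were the same.

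The mitochondrial trifunctional protein carries out the next 3 reactions on long-chain substrates. HADHA provides the hydratase and 3-hydroxyacyl-CoA dehydrogenase activities and HADHB the thiolase. The genes lie head to head on chromosome 5, Hadha (ENSMUSG00000025745.13, chr5:30323302-30360187) on the minus strand and Hadhb (ENSMUSG00000059447.14, chr5:30359204-30389997) on the plus strand, and the starts of their canonical transcripts are 65 bases apart. The sequence from one start to the other (chr5:30360181-30360246 of GRCm39, plus strand, read from the reference genome) is shown because it lies between the starts of both genes, with the GC-box letters GGGCGG in capitals.
Hadha-Hadhb: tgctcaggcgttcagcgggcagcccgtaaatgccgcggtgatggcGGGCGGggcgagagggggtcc
The letters GGGCGG occur, on either strand, in 42.5% of 21770 promoter windows of protein-coding genes, taken from 250 bases before to 50 bases after the start of the canonical transcript.

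Hadha had 1099, 1002, and 820 CPM in WT mice and 618, 861, and 930 CPM in Lztr1 R409C/+ mice. The ranges overlapped (log2 fold change -0.28, standard error 0.20, adjusted p = 0.745). Single mice moved the value of Hadha, to -0.13 without Lztr1 R409C/+ replicate 1, -0.18 without WT replicate 1, and -0.39 without WT replicate 3. Hadhb had 1445, 1550, and 1454 CPM in WT mice and 945, 1283, and 1023 CPM in Lztr1 R409C/+ mice. All 3 Lztr1 R409C/+ values of Hadhb were below the WT values, and the mean was 73.1% of that in WT mice. The log2 fold change of Hadhb was -0.45 (95% interval, -0.85 to -0.05, unadjusted p = 0.0303, adjusted p = 0.532), close to that of Etfdh (-0.45). Without Lztr1 R409C/+ replicate 1 it was -0.37, and without WT replicate 3 it was -0.47. Although the starts lie this close, the ratio of the mRNAs was not constant between mice. The ratio of Hadha to Hadhb counts was 0.761, 0.646, and 0.564 in WT mice and 0.654, 0.671, and 0.909 in Lztr1 R409C/+ mice, with overlap between the groups (difference of mean log2 ratio 0.18, exact permutation test, p = 0.4). This difference rested on single mice, since it was 0.023 without Lztr1 R409C/+ replicate 3, 0.070 without WT replicate 3, and 0.29 without WT replicate 1.

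The counts of Hadhb are less certain than those of the other genes. The processed pseudogene Hadhb-ps (chr2:108779150-108780580) is 99.79% identical to the Hadhb transcript over 1428 bases, and it had 359, 379, and 314 CPM in WT mice and 232, 306, and 253 CPM in Lztr1 R409C/+ mice. Its values, too, were lower in every Lztr1 R409C/+ mouse, and the log2 fold change of Hadhb-ps was -0.41 (adjusted p = 0.532). Reads of such copies can be assigned to either locus, and whether Hadhb-ps is transcribed was not tested. When the counts of Hadhb, Hadhb-ps, and the pseudogene Gm9108 (97.616% identical, between 3.65 and 7.94 CPM) were added, the log2 fold change was -0.44 (adjusted p = 0.555). In the annotation, transcripts of Hadha and Hadhb also overlap, with 258 bases of the Hadha transcript found in Hadhb transcripts, and the strandedness of the libraries is not stated.

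Downstream of the trifunctional protein, medium-chain and short-chain intermediates are handled by separate enzymes. Hadh (ENSMUSG00000027984.9, chr3:131027068-131065750), the medium- and short-chain 3-hydroxyacyl-CoA dehydrogenase, had 400, 431, and 462 CPM in WT mice and 374, 425, and 347 CPM in Lztr1 R409C/+ mice. Acaa2 (ENSMUSG00000036880.11, chromosome 18), the medium-chain thiolase, had 594, 559, and 614 CPM in WT mice and 437, 572, and 541 CPM in Lztr1 R409C/+ mice. Both overlapped between the groups. In the fit of all 6 mice, their log2 fold changes were the closest to 0 among the 9 genes below it. They were -0.17 for Hadh (95% interval, -0.52 to 0.17, adjusted p = 0.806) and -0.19 for Acaa2 (95% interval, -0.55 to 0.17, adjusted p = 0.797). Without Lztr1 R409C/+ replicate 1, Hadha (-0.13) and Acadvl (-0.15) lay closer to 0 than Hadh. Hadh was at -0.11 without Lztr1 R409C/+ replicate 3, -0.26 without Lztr1 R409C/+ replicate 2, -0.17 without Lztr1 R409C/+ replicate 1, and -0.12 without WT replicate 3. Acaa2 was at -0.089 without Lztr1 R409C/+ replicate 1 and -0.16 without WT replicate 3. The proportion of the 2 thiolase genes was compared within each mouse. The ratio of Acaa2 to Hadhb was 0.411, 0.360, and 0.422 in WT mice and 0.462, 0.446, and 0.529 in Lztr1 R409C/+ mice, so that every Lztr1 R409C/+ mouse was above every WT mouse. The difference of the mean log2 ratio of Acaa2 to Hadhb was 0.27 (p = 0.1 by exact permutation, the minimum for this design, and adjusted p = 0.3 over 9 ratios), and it was 0.26 with the pseudogene counts added to Hadhb and 0.16 after a loess correction of each library for exonic length. With any 1 mouse left out, it lay between 0.19 and 0.32. The ratio of Hadh to Hadha ranged from 0.364 to 0.564 in WT mice and from 0.373 to 0.605 in Lztr1 R409C/+ mice.

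Of the 3 genes of the electron transfer system, 2 were lower in every Lztr1 R409C/+ mouse and Etfb was not. Lack of overlap in this direction was found in 7.23% of all genes and 18.6% of those with at least 100 CPM. Etfdh (ENSMUSG00000027809.15, chr3:79511086-79536807), which encodes the ETF dehydrogenase, had 513, 488, and 524 CPM in WT mice and 336, 393, and 389 CPM in Lztr1 R409C/+ mice. The groups did not overlap, and the mean in Lztr1 R409C/+ mice was 73.4% of that in WT mice (373 ± 31.8 against 508 ± 18.3 CPM, SD, n = 3). The log2 fold change of Etfdh was -0.45 (95% interval, -0.78 to -0.11), and its unadjusted p from edgeR was the smallest of the 10 genes (unadjusted p = 0.0138, adjusted p = 0.458). It was -0.39 without Lztr1 R409C/+ replicate 1 and -0.43 without WT replicate 3. Etfa (ENSMUSG00000032314.15, chr9:55361714-55419792), the alpha subunit, had 481, 463, and 563 CPM in WT mice and 399, 388, and 384 CPM in Lztr1 R409C/+ mice. The 3 Lztr1 R409C/+ values of Etfa were nearly the same (390 ± 7.79 CPM, SD, n = 3), including that of replicate 1, and lay below all WT values. The log2 fold change of Etfa was -0.37 (95% interval, -0.71 to -0.02, unadjusted p = 0.0382, adjusted p = 0.554), and it was -0.39 without Lztr1 R409C/+ replicate 1 and -0.28 without WT replicate 3. By contrast, Etfb (ENSMUSG00000004610.5, chr7:43093493-43107224), the beta subunit, had 178, 155, and 222 CPM in WT mice and 188, 195, and 245 CPM in Lztr1 R409C/+ mice. The Etfb groups overlapped, and the log2 fold change was 0.17 (95% interval, -0.22 to 0.57, adjusted p = 0.832). This value was 0.045 without Lztr1 R409C/+ replicate 3, 0.057 without WT replicate 2, 0.32 without WT replicate 3, and 0.24 without Lztr1 R409C/+ replicate 1.

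Because ETFA and ETFB form a heterodimer, the ratio of their mRNAs was compared within each mouse, which does not depend on the scaling between libraries. The ratio of Etfa to Etfb counts was 2.70, 2.98, and 2.53 in WT mice and 2.13, 1.99, and 1.57 in Lztr1 R409C/+ mice. The ratio of Etfdh to Etfb was 2.88, 3.14, and 2.35 in WT mice and 1.79, 2.02, and 1.59 in Lztr1 R409C/+ mice. Neither ratio overlapped between the groups. The mean log2 ratio was lower in Lztr1 R409C/+ mice by 0.54 for Etfa to Etfb (a difference of -0.54) and by 0.63 for Etfdh to Etfb (a difference of -0.63). Both exact permutation tests gave p = 0.1, the smallest possible, and adjusted p = 0.3 over 9 ratios. With any 1 mouse left out, the differences lay between -0.63 and -0.41 for Etfa to Etfb and between -0.75 and -0.54 for Etfdh to Etfb. In contrast, the ratio of Etfdh to Etfa was 1.07, 1.05, and 0.929 in WT mice and 0.843, 1.01, and 1.01 in Lztr1 R409C/+ mice, and overlapped (difference -0.09, exact permutation test, p = 0.5). With any 1 mouse left out, the difference lay between -0.15 (without WT replicate 3) and -0.00096 (without Lztr1 R409C/+ replicate 1). Etfb also differs in length. Its exons span 1557 bases, the shortest of the 10 genes, where the others span between 3905 and 15733 bases. After a loess correction of each library for exonic length, the log2 fold change of Etfb was 0.03, and the differences of the ratios were -0.39 for Etfa to Etfb and -0.44 for Etfdh to Etfb, still without overlap at the smallest p the permutation allows (exact test, p = 0.1). Etfbl, an annotated gene that shares most of the Etfb transcript (99.681% identical over 626 bases), had between 0 and 22 counts.

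**Figure D3:**
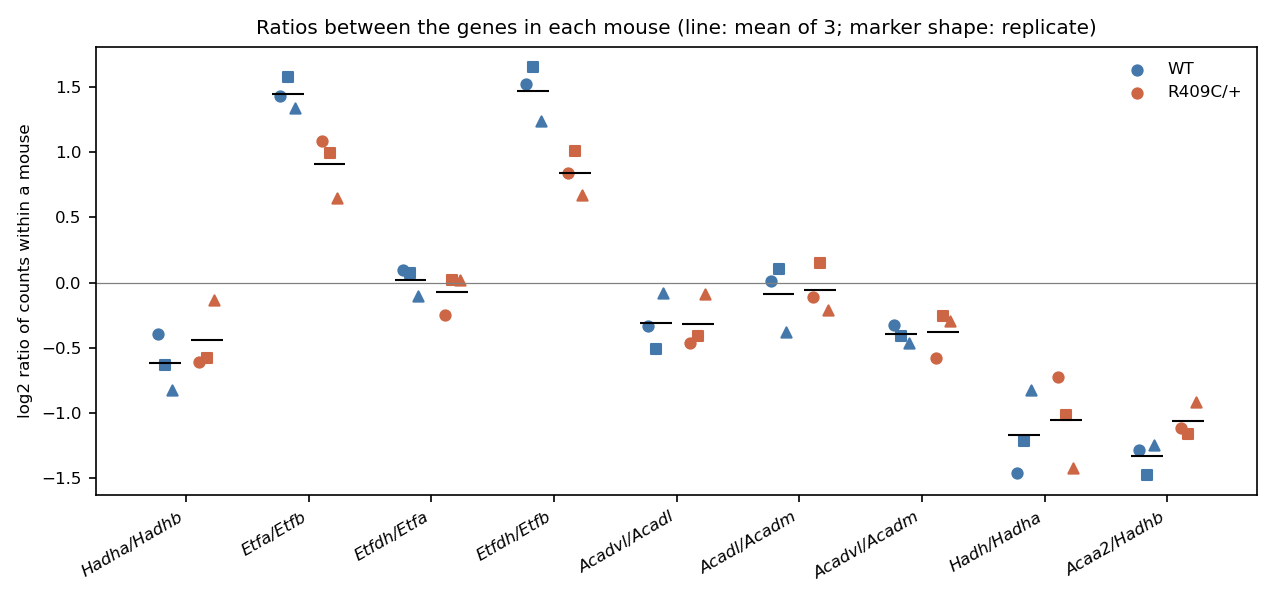
log2 ratio of the counts of 2 genes within each mouse (y axis) for 9 ratios, with WT mice in blue and Lztr1 R409C/+ mice in orange. Lines are means of 3 mice and marker shapes the replicates. The ratios of Etfa to Etfb and Etfdh to Etfb are lower, and that of Acaa2 to Hadhb higher, in every Lztr1 R409C/+ mouse, and the other 6 ratios overlap.

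The sequences before the starts of Etfb and Etfdh are shown because the ratio of these genes did not overlap between the groups. They were read from GRCm39 on the strand of the gene, for Etfb up to its first annotated exon and for Etfdh back to the start of the divergent neighbour. Capitals mark matches from a search of both strands for the nuclear receptor core AGGTCA, for its longer form AAGGTCA that ERRs bind, for GCATGCG, the core of the NRF1 motif, for the CCAAT box, and for the GC box GGGCGG. The letters AGGTCA are contained in AAGGTCA, and matches of GCATGCG on both strands can overlap each other.
Etfb, chr7:43093243-43093492, plus strand: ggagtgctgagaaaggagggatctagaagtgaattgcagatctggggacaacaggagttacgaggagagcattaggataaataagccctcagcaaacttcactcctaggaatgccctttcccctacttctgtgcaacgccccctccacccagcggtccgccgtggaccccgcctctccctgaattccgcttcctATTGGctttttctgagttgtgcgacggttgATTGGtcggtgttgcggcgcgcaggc
Etfdh, chr3:79536200-79536381, minus strand: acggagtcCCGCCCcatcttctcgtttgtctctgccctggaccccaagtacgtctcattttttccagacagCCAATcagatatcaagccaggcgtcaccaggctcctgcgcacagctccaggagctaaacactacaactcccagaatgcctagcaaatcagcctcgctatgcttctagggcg
In the window of 250 bases before to 50 bases after the start, Etfb held CCAAT at 2 places on the opposite strand, printed as ATTGG, and Etfdh held it once. CCAAT was present in 39.9% of all promoter windows and in 5 of the 10 genes (Acadl, Hadh, Acaa2, Etfb, and Etfdh).

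The NRF1 core GCATGCG was found in 2 of the 10 genes and in 4.69% of all promoter windows. In Etfdh, overlapping matches on both strands cover the start itself, from base -2 to base 6, and in Acadm they lie from base -164 to base -157. The longer receptor core AAGGTCA was found in 1 of the 10 genes, Hadha, from base -125 to base -119 before the start, and in 4.48% of all windows. Because of the head-to-head arrangement this match lies downstream of the start of Hadhb. The shorter AGGTCA was found in Hadha and Acadvl and in 15.1% of all windows. The stretches around the matches at the start of Etfdh and before Hadha are given on the strand of the gene, with the matches in capitals.
Etfdh, chr3:79536185-79536211, minus strand: gcttctagggCGCATGCGcacacgcga
Hadha, chr5:30360290-30360316, minus strand: cgctgccaacAAGGTCAagtccagact
These matches describe the letters of the windows; binding was not measured.

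Neighbouring genes were examined because overlapping transcripts can exchange reads when strand is not recorded. Etfdh starts 183 bases from the divergent gene 4930579G24Rik, which had between 104 and 231 counts and a log2 fold change of -0.08 (unadjusted p = 0.785), in contrast to -0.45 for Etfdh. At its other end, Etfdh overlaps Ppid, a cyclophilin gene on the opposite strand, by 390 bases of transcript. Ppid had between 29.0 and 46.0 CPM and a log2 fold change of -0.33 (unadjusted p = 0.0850), where Etfdh had between 336 and 524 CPM. Dvl2, which overlaps Acadvl, had between 4.37 and 7.54 CPM, and Garem2, which overlaps Hadha, had between 0 and 39 counts.

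Across the 6 mice, 9 of the 10 genes were positively correlated in every pair. As a description over 6 mice, in each of which the genes share 1 library with its depth and scaling, the 36 pairs of genes without Etfb had a median Pearson r of log2 CPM of 0.73, from 0.14 (Hadha with Hadh) to 0.94 (Acadl with Hadhb), and 0 pairs were below 0. The 9 pairs with Etfb had a median r of -0.20, from -0.46 to 0.35, and 6 of them were below 0. The 5 other genes with a mean of at least 10 CPM whose profile over the 6 mice was most like the mean of the 10 genes were Mdh2 (mitochondrial malate dehydrogenase; r = 0.998), Snd1 (an RNA-binding nuclease; r = 0.994), Mccc1 (a subunit of the mitochondrial 3-methylcrotonyl-CoA carboxylase; r = 0.993), Dcaf7 (a WD-repeat scaffold protein; r = 0.992), and Got1 (cytosolic aspartate aminotransferase; r = 0.992). With 6 mice and 7736 candidate genes, 258 genes had r above 0.9.

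Other genes of the pathway were described from lists in the same fit, and of these lists 0 genes passed the false discovery rate of 0.05 by edgeR or DESeq2. Of 19 other enzymes of mitochondrial beta-oxidation and its branches, 16 had a log2 fold change below 0 (median -0.23), 1 was lower at an unadjusted p under 0.05 (2.86% of all genes, 7.79% of those with at least 100 CPM), and 5 were lower without overlap (7.23% and 18.6%, respectively). The 1 gene was Mmut (methylmalonyl-CoA mutase), with 118, 113, and 125 CPM in WT mice and 66.2, 98.4, and 86.4 CPM in Lztr1 R409C/+ mice (log2 fold change -0.50, unadjusted p = 0.0129, adjusted p = 0.455). Pcca, a subunit of propionyl-CoA carboxylase upstream in the same pathway, overlapped between the groups (log2 fold change -0.35, unadjusted p = 0.0624). The other enzymes without overlap were Acad9, Decr1, Echs1, and Acat1, at log2 fold changes between -0.26 and -0.22, and the highest value of the list was that of Mcee (0.32, unadjusted p = 0.104).

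A separate list held flavin dehydrogenases that pass electrons to ETF and act in the breakdown of amino acids, choline derivatives, and hydroxyglutarate. Acads and other acyl-CoA dehydrogenases were counted above, with the enzymes of beta-oxidation. Of 8 listed, 7 were tested, and Dmgdh had 0 counts in every library, which allows up to 0.0541 CPM. The log2 fold change was below 0 in 6 of the 7 (median -0.36), and in 4 of the 7 the gene was lower at an unadjusted p under 0.05 and the groups did not overlap. The shares of all genes tested were 2.86% for the first criterion and 7.23% for the second, and those of genes with at least 100 CPM were 7.79% and 18.6%. Ivd, the isovaleryl-CoA dehydrogenase of leucine breakdown, had 327, 328, and 317 CPM in WT mice and 237, 260, and 256 CPM in Lztr1 R409C/+ mice (log2 fold change -0.37, unadjusted p = 0.0285, adjusted p = 0.531). D2hgdh, the D-2-hydroxyglutarate dehydrogenase, had 33.2, 31.5, and 30.5 CPM in WT mice and 24.4, 25.0, and 24.9 CPM in Lztr1 R409C/+ mice (log2 fold change -0.36, unadjusted p = 0.0272, adjusted p = 0.526). Acadsb, which acts in isoleucine breakdown, was at -0.38. Of 7 tested genes for the upkeep of ETF and the supply of flavin, 4 were below 0 (median -0.01, and between -0.053 and 0.054 with 1 mouse left out) and 0 had an unadjusted p under 0.05 in either direction. Among them, Etfbkmt, the lysine methyltransferase of ETFB, had a log2 fold change of 0.15 (95% interval, -0.28 to 0.58), and Etfrf1, a regulator of ETF, one of 0.10 (95% interval, -0.31 to 0.52).

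**Figure D4:**
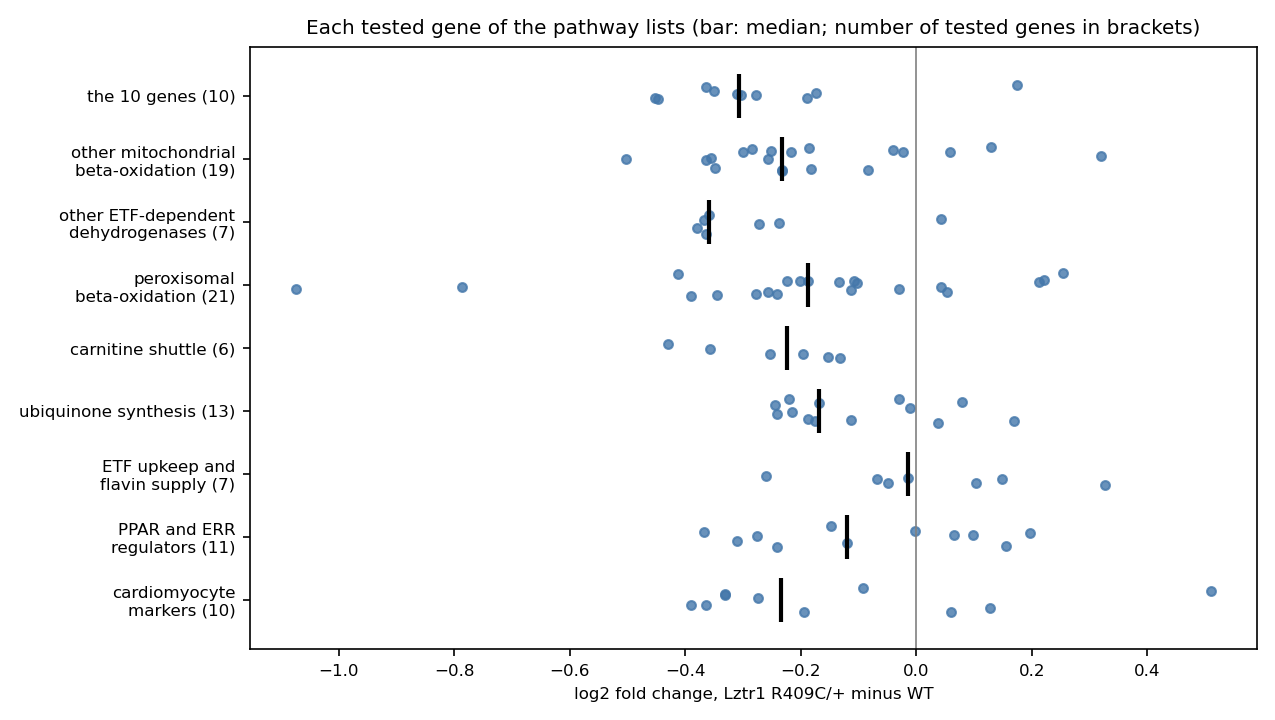
log2 fold changes (x axis, Lztr1 R409C/+ minus WT) of each tested gene in the 10 genes described here, 7 related lists, and 10 cardiomyocyte markers. Bars are medians, and points are spread vertically at random. The medians of the 10 genes (-0.31) and of the other ETF-dependent dehydrogenases (-0.36) are the lowest, and that of ETF upkeep and flavin supply (-0.01) is the highest.

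Before oxidation, fatty acids are activated and carried into mitochondria by the carnitine shuttle. All 6 genes of this list were below 0 (median -0.22), 0 had an unadjusted p under 0.05, and 3 were lower without overlap (Acsl1, Slc22a5, and Slc25a20), against 7.23% of all genes and 18.6% of those with at least 100 CPM. Without Lztr1 R409C/+ replicate 2, the median was -0.41. Acsl1, the main long-chain acyl-CoA synthetase of the heart, had 850, 854, and 735 CPM in WT mice and 422, 720, and 669 CPM in Lztr1 R409C/+ mice (log2 fold change -0.43, unadjusted p = 0.0616). Cpt1b, the muscle carnitine palmitoyltransferase, overlapped between the groups (log2 fold change -0.36, unadjusted p = 0.109).

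Of 21 genes of peroxisomal beta-oxidation, 16 were below 0 (median -0.19), 3 were lower at an unadjusted p under 0.05 (Abcd3 and Acot4 among them), and 4 were lower without overlap, where the shares of all genes were 2.86% and 7.23%. Abcd3, a peroxisomal importer of fatty acids, had 129, 129, and 151 CPM in WT mice and between 92.0 and 115 CPM in Lztr1 R409C/+ mice, without overlap (log2 fold change -0.41, unadjusted p = 0.0227, adjusted p = 0.508).

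Ubiquinone accepts the electrons of ETFDH, and of 13 genes for its synthesis and handling, 10 were below 0 (median -0.17) and 0 had an unadjusted p under 0.05. This median was -0.018 without WT replicate 3 and -0.065 without Lztr1 R409C/+ replicate 1. The 2 genes named by the rule were Coq10a (-0.25) and Coq8a (-0.22), both with overlap between the groups. Of 11 genes for PPARs, ERRs, and their partners, which regulate transcription of beta-oxidation genes, 7 were below 0 (median -0.12) and 0 had an unadjusted p under 0.05. The median of these regulators was -0.0040 without WT replicate 2, -0.023 without WT replicate 1, and -0.046 without Lztr1 R409C/+ replicate 1. Esrrg had 51.8, 63.5, and 48.9 CPM in WT mice and 42.5, 48.5, and 41.4 CPM in Lztr1 R409C/+ mice, without overlap (log2 fold change -0.31, unadjusted p = 0.0736). Ppara, which encodes the main fatty acid receptor of the heart, overlapped between the groups (log2 fold change -0.37, 95% interval, -0.85 to 0.12).

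Markers of cell types were examined beside these values. None of the 10 cardiomyocyte markers had an unadjusted p under 0.05. They had a median log2 fold change of -0.23. Of the 10 markers, 7 were below 0 and 1 (Ryr2) was lower without overlap (67.3% and 18.6% of genes with at least 100 CPM). Their mean log2 CPM, centred on the mean of the 6 mice for each gene, was 0.15, 0.05, and 0.03 in WT mice and -0.28, -0.08, and 0.12 in Lztr1 R409C/+ mice. The same measure for the 10 genes described here was 0.13, 0.06, and 0.22 in WT mice and -0.33, -0.04, and -0.05 in Lztr1 R409C/+ mice. Lztr1 R409C/+ replicate 1 was the lowest in both, whereas Lztr1 R409C/+ replicate 3 was above 0 for the markers and below 0 for the 10 genes. For each of the 8 macrophage markers, the lowest Lztr1 R409C/+ value exceeded the highest WT value, and 2 of the markers (C1qb and C1qc) passed the false discovery rate of 0.05. The shares of all genes that were higher by these criteria were 8.3% and 0.0349%, respectively. The sum of the 8 was between 185 and 210 CPM in WT mice and between 318 and 423 CPM in Lztr1 R409C/+ mice. The sum of 5 erythroid markers was between 579 and 1479 CPM in WT mice and between 1042 and 2625 CPM in Lztr1 R409C/+ mice. All 5 erythroid markers overlapped between the groups, with log2 fold changes between 0.90 and 1.08. By the quasi-likelihood test of edgeR, Hba-a1 (unadjusted p = 0.0066, adjusted p = 0.372), Hba-a2 (unadjusted p = 0.0125, adjusted p = 0.455), and Alas2 (unadjusted p = 0.0430, adjusted p = 0.566) had an unadjusted p under 0.05. By this criterion, 5.77% of all genes were higher. The sums for fibroblasts (7 markers; 809 to 1128 against 816 to 1098 CPM), endothelial cells (7 markers; 581 to 753 against 513 to 808 CPM), and smooth muscle and pericytes (6 markers; 651 to 769 against 601 to 744 CPM) overlapped. Single markers within these lists did not overlap, where 7.23% of all genes were lower and 8.3% higher without overlap. Lum (log2 fold change 0.61, unadjusted p = 0.0037, adjusted p = 0.305) and Tcf21 (0.54, unadjusted p = 0.0429, adjusted p = 0.565), of the fibroblast list, were above all WT values in every Lztr1 R409C/+ mouse. Emcn, of the endothelial list, was also above them (0.40, unadjusted p = 0.0311, adjusted p = 0.535). Myh11 (-0.71, unadjusted p = 0.0104, adjusted p = 0.438) and Tagln (-0.65, unadjusted p = 0.0152, adjusted p = 0.470), of the smooth muscle list, were below all WT values, and the sum of that list was mostly Rgs5 (between 426 and 621 CPM, with overlap). White adipocyte markers summed to at most 0.249 CPM, with Lep at 0 in every mouse, and of the 2 brown adipocyte markers Ucp1 was also at 0 and Cidea had between 7.41 and 11.0 CPM. The sums of 8 skeletal muscle markers also overlapped (1368 to 1670 against 1484 to 1824 CPM). Of the 4 tested, 1 was below 0. This was Acta1, with overlap (log2 fold change -0.58, edgeR unadjusted p = 0.0172, adjusted p = 0.483). The part of these markers in the levels of the 10 genes was not tested.

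When the libraries were scaled to the mean of the 10 cardiomyocyte markers, an alternative chosen after the data were seen, the median log2 fold change of the 10 genes was -0.17 and that of all genes tested was 0.17. With this scaling, 9 of the 10 genes remained below 0, 0 had an unadjusted p under 0.05, a criterion by which 0.407% of all genes were then lower, and 2 were lower without overlap, where 1.71% of all genes and 2.85% of those with at least 100 CPM were. Etfdh was then at -0.29 (adjusted p = 0.618), Hadhb at -0.30 (adjusted p = 0.683), and Etfb at 0.32 (adjusted p = 0.649). Scaling by library size alone moved the values the other way, to a median of -0.45 for the 10 genes against -0.14 for all genes, and Etfb to -0.01.

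**Figure D5:**
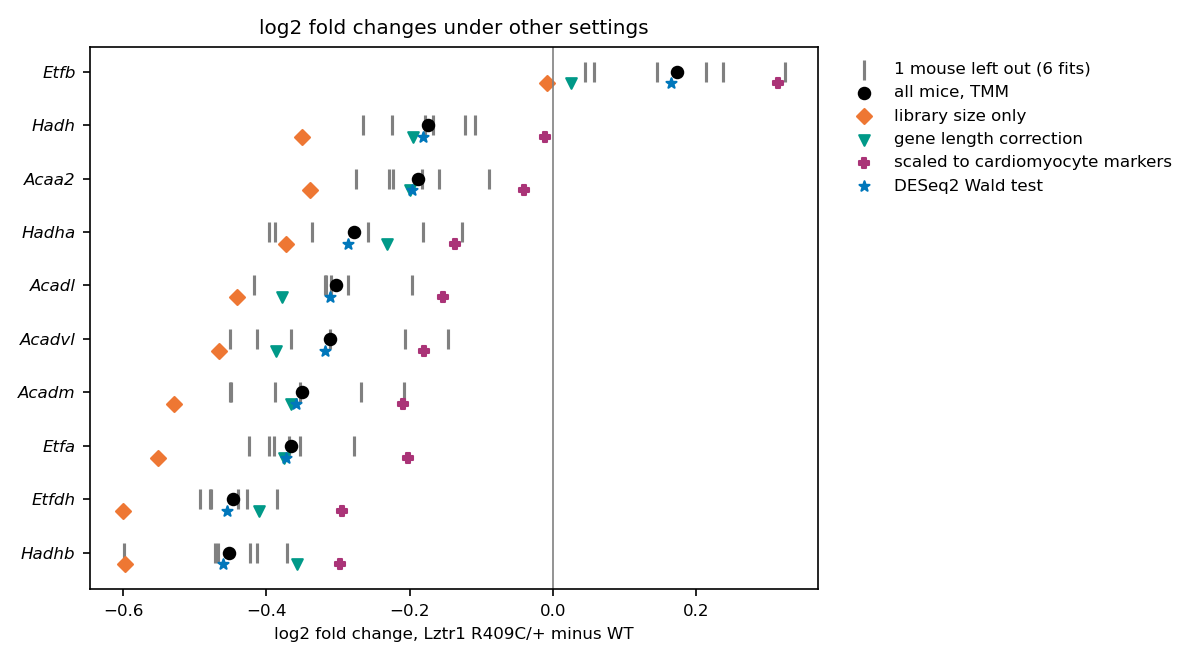
log2 fold changes (x axis, Lztr1 R409C/+ minus WT) of the 10 genes with all mice and TMM scaling (black points), in the 6 fits that each leave out 1 mouse (grey ticks), and with other scalings, a gene length correction, or DESeq2 (coloured symbols). For 9 genes every symbol lies below 0, with Hadh at -0.01 under scaling to cardiomyocyte markers, and Etfb lies above 0 except with library size only (-0.01).

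Levels of different genes were compared per kb of transcript. With the summed length of all annotated exons, Acadl had the highest level in WT mice (192 ± 4.04 CPM per kb; SD, n = 3) and Etfdh the lowest (58.4 ± 2.10 CPM per kb), and both were separate from their neighbours in the order. Between them, in falling order, came Acadvl, Acadm, Etfb, Hadha, Hadhb, Acaa2, Etfa, and Hadh, each overlapping the next. In Lztr1 R409C/+ mice, Acadl (155 ± 24.1 CPM per kb) and Etfdh (42.9 ± 3.65 CPM per kb) were again first and last, and Etfb stood second at 134 ± 20.0 CPM per kb, overlapping Acadl. This order depended on the length used. With the longest transcript of each gene, Acadm was first in WT mice (370 ± 62.7 CPM per kb) and separate from the next, Etfa was last (103 ± 10.9 CPM per kb), and Etfdh was eighth. With the canonical transcript, Hadhb was first in WT mice (729 ± 28.6 CPM per kb), and Etfdh (210 ± 7.58 CPM per kb) and Etfb (208 ± 38.1 CPM per kb) were last and overlapped. The annotated exons of Hadhb sum to 15733 bases and its canonical transcript to 2033 bases, and the places of Hadhb, Acadl, and Etfdh in the order could not be fixed.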

How the data were processed

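LVs of 3 WT and 3 Lztr1 R409C/+ mice were analysed, grouped by the sample labels. Per the study's methods and processing notes, the authors trimmed reads with Trim Galore, aligned them to GRCm39 with HISAT2, excluded rRNA, and deposited counts per gene from StringTie, whole numbers without normalization. The annotation release, tool versions, and strandedness are not given in the sources used here. The authors' edgeR table (fold changes, p-values) served only for gene names.

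Counts were filtered with filterByExpr (17212 of 56923 genes kept), scaled by TMM, and tested with the robust quasi-likelihood test of edgeR 4.0.16 in R 4.3.3, two-sided, with Benjamini-Hochberg adjustment over all genes tested and a threshold of 0.05. The common biological coefficient of variation was 26.1%. Single values and 9 ratios of counts within a mouse were compared by two-sided exact permutation tests (3 against 3; smallest p, 0.1). The labels do not say whether mice shared litters, so p-values measure the spread between these 6 mice. Totals, floors (3 counts), and their precision cover counting error only. Positions, lengths, and sequences came from GRCm39 with GENCODE M39, matched by unversioned identifier for 56236 genes; near-identical transcripts (at least 95% over 100 bases) were found with BLAST 2.17.0.

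Besides the 10 genes, the genes named were the 2 of each pathway list with the smallest unadjusted p and a mean of at least 10 CPM, overlapping or divergent neighbours (within 1000 bases), and the 5 genes most like the mean of the 10; others were named after their values were seen. Some genes and sequences under this rule are not reported here. The genes, lists, and tests were chosen with earlier results of these data known. Alternatives were DESeq2 1.42.0 (size factors, Wald test), library size only, upper quartile, removal of mitochondrially encoded genes, other filters, no robust fit, a replicate block, a gene length correction, other transcript lengths, and omission of each mouse. Scaling to cardiomyocyte markers, addition of the Hadhb pseudogenes, the canonical transcript length, and the length correction of ratios were chosen after the data were seen. Scripts were checked on simulated counts.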

Additional observations from a re-analysis of the deposited data

How the results depend on the processing

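None of the 10 genes passed the false discovery rate of 0.05 in 19 alternatives; the smallest adjusted p was 0.164 (Etfdh, DESeq2). The count below 0 was 9 or 10, and the median log2 fold change lay between -0.45 (library size only) and -0.17 (cardiomyocyte markers), and between -0.37 and -0.18 with 1 mouse left out. The count lower at an unadjusted p under 0.05, 3, became 0 with library size only (1.75% of all genes) or cardiomyocyte markers (0.407%), 1 with the length correction and replicate block (2.18%), 2 with the replicate block (1.88%), upper quartile (1.77%), or no robust fit (2.74%), with Etfa lost in each, and 0 to 2 with 1 mouse left out. With the length correction it was 3 (3.16% of all genes), with Acadl in place of Hadhb. The count lower without overlap, 4, became 2 with library size only (4.75% of all genes) or cardiomyocyte markers (1.71%) and 4 to 7 with 1 mouse left out (7 without WT replicate 2). Leaving out a mouse makes lack of overlap more common, in 11.1% to 13% of all genes and 22.5% to 30.5% of those with at least 100 CPM. Etfb reversed to -0.0080 with library size only. Differences of ratios that changed sign with 1 mouse left out were those of Acadl to Acadm (-0.11 to 0.13), Acadvl to Acadl (-0.13 to 0.10), Acadvl to Acadm (-0.042 to 0.12), and Hadh to Hadha (-0.053 to 0.30); with the length correction, Acadl to Acadm was -0.035 and Acadvl to Acadm -0.047. The cause was not tested. Of all genes, 7 passed the threshold, against 158 with the DESeq2 Wald test, 20 without a filter, 21 with library size only, 1 with the replicate block (with or without length correction), and 2 to 4 with 1 mouse left out. The median of the PPAR and ERR genes was 0.07 with cardiomyocyte markers. Correlations of deviations between same-numbered mice were -0.04, 0.07, and -0.11, and those between differently numbered mice lay between -0.09 and 0.11. With 3 mice per group, these values cannot show whether the numbers pair the mice. With the replicate block, Etfdh was at -0.45 (adjusted p = 0.683) and the median of the 10 genes at -0.32. The lowest value among the 10 genes was 155 CPM (Etfb), and the number of mice limits the precision.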
